A study of Mus musculus with 10 samples.

Results

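The genes described here are 40 markers of the blood vessel wall: 32 genes of endothelial cells and 8 of pericytes. They were chosen by symbol, from lists of capillary, arterial, venous, lymphatic and endocardial endothelial genes and of pericyte genes, out of 56832 genes in the count table. A row was present for 39 of the 40. No row carried the symbol Npr3os. Of the 39, 38 passed the filter on low counts and were tested. Ackr1, a chemokine receptor of venules, was too low for the test, with 1, 33 and 19 counts in the GFP− libraries of mice 21A4, 21A5 and 21A7 and 0 in the other 7 libraries. It shares 25.7% of its exonic bases with Cadm3. The libraries came from 5 Sprr1a-GFP mice, each tagged Hetz in its title, in which myocardial infarction was made at 12 weeks of age. Hearts were taken 5 days later, cardiomyocytes were released by Langendorff digestion and sorted by flow cytometry, and each mouse gave 1 library of GFP+ cells, labelled border zone, and 1 of GFP− cells, labelled remote zone. Every mouse had an infarct, so no uninjured heart is among the groups. The titles of the GFP+ libraries name DAPI-negative and DAPI-positive sorts together, whereas those of the GFP− libraries name the DAPI-negative sort alone. The effect of this difference in sorting and that of GFP cannot be told apart. The mice carry the identifiers 17C1 and 17C2 (the 17C series) and 21A4, 21A5 and 21A7 (the 21A series), and the labels do not say what the series prefix stands for. In all lists of 5 values below, the mice are in this order.

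Endothelial cells line all vessels and the heart chambers, and their identity is set by transcription factors of the ETS, SOX and nuclear receptor families. In heart muscle nearly every cardiomyocyte lies against a capillary, and pericytes sit on the capillary wall, held there by PDGF-B signalling through the receptor Pdgfrb. Cardiomyocytes send VEGF-A to the endothelial receptors Kdr and Flt1, and pericytes send angiopoietin-1 to the endothelial receptor Tek. The libraries are labelled as cardiomyocytes, a cell type for which most of these genes are not known. Abcc9, Kcnj8 and Prox1 are exceptions that heart muscle cells express as well, and Gja5 is expressed by conduction and atrial myocytes.

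Promoter windows are shown for 3 members as examples. Emcn and Flt1 are among the endothelial genes that fell in the 21A mice, and Cspg4 is the pericyte gene that rose in both series. Each is the 250 bases before a transcription start from the RefSeq table of build GRCm38.p6, an earlier build than the GRCm39 of the counts, and is printed 5′ to 3′ along the gene's strand. Capitals mark AGGAAG or its reverse complement CTTCCT, a core that ETS factors such as Erg and Fli1 can bind.
Emcn (chr3:137340828-137341077, plus strand): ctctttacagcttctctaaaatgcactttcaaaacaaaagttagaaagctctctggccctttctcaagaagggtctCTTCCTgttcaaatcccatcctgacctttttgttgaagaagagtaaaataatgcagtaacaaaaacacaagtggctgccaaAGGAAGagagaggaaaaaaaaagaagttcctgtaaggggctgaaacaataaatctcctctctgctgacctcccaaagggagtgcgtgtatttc
Flt1 (chr5:147726012-147726261, minus strand): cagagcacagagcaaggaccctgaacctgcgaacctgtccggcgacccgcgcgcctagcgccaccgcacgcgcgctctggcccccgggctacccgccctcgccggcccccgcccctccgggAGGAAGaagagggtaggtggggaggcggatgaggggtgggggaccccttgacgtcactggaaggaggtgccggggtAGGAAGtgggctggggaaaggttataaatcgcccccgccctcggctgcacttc
Cspg4 (chr9:56864854-56865103, plus strand): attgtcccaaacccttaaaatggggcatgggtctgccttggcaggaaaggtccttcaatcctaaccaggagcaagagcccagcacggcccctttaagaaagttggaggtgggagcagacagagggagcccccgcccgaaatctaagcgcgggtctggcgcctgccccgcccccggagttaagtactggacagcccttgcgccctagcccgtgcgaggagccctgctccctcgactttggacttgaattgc
The Emcn and Flt1 windows held 2 cores each and the Cspg4 window held 0. Of the other members that fell in the 21A mice, Ece1 and Tek held 0 cores in any window. Tie1 and Nr2f2 held 1 each. Windows were read for 25 of the 40 members, and Pdgfrb was not among them. In these members the core was present in 12 of 34 windows (35.3%), beside 9686 of 32851 windows of the same length over all genes (29.5%). A match describes letters in the window and is no evidence of binding. Ptprb, Vwf, Plvap, Cdh5, Pecam1 and Fli1 had no entry.

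Total counts per library were between 12244373 and 38879965. Mitochondrial genes took 9.20 to 91.2% of them, which left 3417972 to 16918067 counts for the other genes. Both ends of the mitochondrial range belong to mouse 21A7, whose GFP− library was also lowest in the summed level of 13 cardiomyocyte genes. All 13 cardiomyocyte genes were detected in all 10 libraries. Sprr1a, the gene of the reporter on which cells were sorted, rose in GFP+ by 6.64 ± 0.75 (SE) on the log2 scale in edgeR's test (adjusted p = 0.0201) and was higher in 5 of 5 mice. Levels are CPM, the counts of a gene relative to library sizes scaled by TMM. The 39 members together made up 0.0452 to 0.483% of the counts of non-mitochondrial genes, and 36 to 39 of them were detected in each library.

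The first comparison asks whether vessel wall transcripts differed between GFP+ and GFP− cells of the same heart. They were lower in GFP+ for most members: 34 of 38 tested had a negative log2 fold change, and the median was −0.98, beside −0.04 over all 12115 genes, of which 52.65% were below 0. In bulk samples fewer cells of a type and less RNA per cell cannot be told apart. In edgeR's quasi-likelihood test with the mouse as a block, 2 members fell, Ece1 and Ptprb, and 0 rose. Over all genes 0.173% fell and 0.685% rose in this test, at a Benjamini-Hochberg adjusted p under 0.05. At an unadjusted p under 0.05, 14 members were lower and 1, Cspg4, was higher, beside 7.59% and 7.74% of all genes. DESeq2 called 8 members lower and 1 higher, beside 3.64% and 3.75% of all genes. Limma voom called 16 and 1, beside 4.84% and 4.76%. Without the mouse as a block edgeR called 0 members in either direction (4 lower and 2 higher at an unadjusted p under 0.05, beside 3.38% and 4.8% of all genes), with 0% of all genes called lower and 0.0825% higher. The GFP+ and GFP− ranges overlapped for each of the 38 members. For 33 of the 38, the GFP− libraries of the 3 21A mice were all above those of the 2 17C mice. Neither of these counts of ranges was made over all genes, so how far they are particular to the members is not known.

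**Figure D1:**
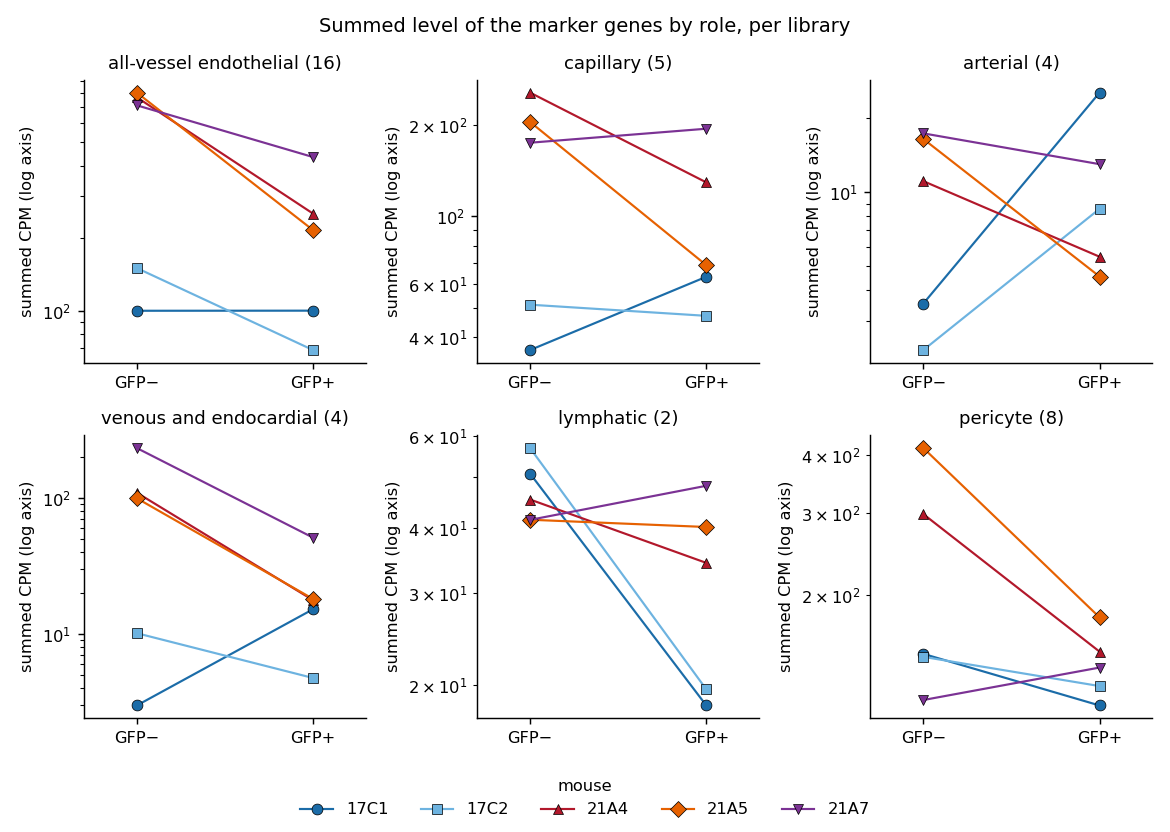
Summed CPM (log axis) of the members of each role in the GFP− and GFP+ library of each mouse; a line joins the libraries of 1 mouse, and numbers in brackets are genes with a row. The all-vessel endothelial genes start at 712 to 804 CPM in the GFP− libraries of the 3 mice of the 21A series and at 99.8 and 150.2 CPM in those of the 17C mice.

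The direction was shared unequally between the mice. GFP+ was below GFP− for 36 of 38 members in 21A4 and in 21A5, for 30 in 17C2, for 16 in 21A7 and for 11 in 17C1. Cdh5, Ptprb, Ece1 and Pdgfrb were lower in GFP+ in 5 of 5 mice, and 16 more members in 4 of 5. Cspg4 was the only member tested that was higher in 5 of 5. These counts of direction were not made over all genes, so an offset between the libraries of a mouse cannot be judged from them. Directions also depend on the TMM factors, which were 3.31 in the GFP− and 0.241 in the GFP+ library of 21A7. As a share of non-mitochondrial counts, the endothelial members of 17C1 were at 0.0349% in GFP− and 0.0320% in GFP+, while their summed CPM rose. In 21A7 the capillary genes were at 0.0632 and 0.0534% and the pericyte genes at 0.0428 and 0.0382%, again while CPM rose. Capillary genes of 17C1 were higher in GFP+ by both measures. Summed over the 39 members, the level was 342, 417, 1489.6, 1581 and 1297 CPM in the GFP− libraries and 337, 275, 590.5, 526 and 881 CPM in the GFP+ libraries. The sum was lower in GFP+ in 5 of 5 mice, by little in 17C1.

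The all-vessel endothelial genes were grouped as found along the whole vascular tree, although Emcn is described below as narrower. They had a median log2 fold change of −1.09, and 16 of 16 were below 0. Ece1, the protease that makes active endothelin-1 from its precursor, was at 13.3, 16.5, 78.6, 76.3 and 171 CPM in the GFP− libraries and 5.33, 7.999, 27.6, 17.7 and 34.1 CPM in the GFP+ libraries. The 21A libraries were above the 17C libraries of the same sort, and within each mouse GFP+ was the lower. Its level was 18.6 ± 12.4 CPM in GFP+ against 71.2 ± 64.0 CPM in GFP− (SD, n = 5). By edgeR's test it fell by 1.67 ± 0.26 (SE) on the log2 scale, adjusted p = 0.0373. Ptprb encodes VE-PTP, a phosphatase that dephosphorylates Tek and VE-cadherin. It was at 9.15, 17.01, 88.5, 81.1 and 71.4 CPM in the GFP− libraries and 3.91, 4.48, 19.3, 23.1 and 42.7 CPM in the GFP+ libraries. Again GFP+ was lower in each mouse while the ranges overlapped across mice, and the log2 fold change was −1.58 ± 0.27 (SE), adjusted p = 0.0426. Without the mouse block neither passed: the adjusted p was 0.521 for Ece1 and 0.631 for Ptprb. Without mouse 21A7 the change of Ece1 was −1.51 with an adjusted p of 0.0539 and that of Ptprb −1.81 with an adjusted p of 0.0318. Leaving out 17C2, 21A4 or 21A5 ended both calls, as did scaling by library totals (adjusted p = 0.185 and 0.163) or to the cardiomyocyte genes (0.621 and 0.484), with both changes still below −1.

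Cdh5 is VE-cadherin, the adhesion molecule of endothelial junctions. It had the highest mean CPM of this role, at 28.5, 29.3, 171, 189.5 and 139.5 CPM in the GFP− libraries and 20.3, 14.3, 50.4, 49.2 and 115 CPM in the GFP+ libraries. GFP+ was lower in 5 of 5 mice, most narrowly in 21A7, and the log2 fold change was −1.10 ± 0.31 (SE), adjusted p = 0.153. Pecam1, the junction protein CD31, was at 7.12, 12.8, 86.2, 101 and 91.3 CPM in the GFP− libraries and 11.2, 5.71, 26.8, 29.1 and 48.6 CPM in the GFP+ libraries. Mouse 17C1 went against the other 4, and the change of −1.02 ± 0.36 (SE) had an adjusted p of 0.237. The VEGF receptor Flt1 was at 4.96, 8.35, 58.0, 78.3 and 45.1 CPM in the GFP− libraries and 5.22, 2.67, 20.1, 19.7 and 24.0 CPM in the GFP+ libraries. It was nearly level in 17C1 and lower in GFP+ in the other 4 mice (−1.22 ± 0.31 (SE), adjusted p = 0.132).

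Tek is the receptor of the angiopoietins, and Tie1 is its partner. Tek was at 2.09, 4.72, 23.4, 26.5 and 25.3 CPM in the GFP− libraries and 3.59, 0.571, 9.12, 6.84 and 11.4 CPM in the GFP+ libraries. Tie1 was at 3.59, 10.2, 39.2, 37.1 and 25.6 CPM in the GFP− libraries and 7.29, 1.62, 12.8, 6.70 and 18.2 CPM in the GFP+ libraries. Both were higher in GFP+ in 17C1 and lower in the other 4 mice, with log2 fold changes of −1.32 ± 0.47 (SE), adjusted p = 0.235 for Tek and −1.27 ± 0.53 (SE), adjusted p = 0.301 for Tie1. Fli1, an ETS transcription factor, followed the same order of mice, at 2.15, 4.02, 18.8, 18.8 and 17.7 CPM in the GFP− libraries and 3.91, 2.48, 5.31, 5.00 and 8.32 CPM in the GFP+ libraries (−0.996 ± 0.42 (SE), adjusted p = 0.309). Emcn encodes endomucin, a sialomucin of veins, capillaries and endocardium, and was at 1.85, 0.630, 12.1, 14.8 and 25.6 CPM in the GFP− libraries and 8.59, 0.571, 5.39, 2.07 and 2.03 CPM in the GFP+ libraries. Its highest GFP+ value was in 17C1 and its lowest GFP− values were in the 17C mice, and the combined change of −1.32 ± 0.86 (SE) had an adjusted p of 0.521.

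Esam, an adhesion molecule of tight junctions, had the change closest to 0 of this role. Its levels were 1.44, 5.51, 17.6, 19.8 and 14.6 CPM in the GFP− libraries and 7.94, 8.67, 6.58, 6.66 and 15.9 CPM in the GFP+ libraries. It was higher in GFP+ in 17C1, 17C2 and 21A7 and lower in 21A4 and 21A5, and its change of −0.038 ± 0.58 (SE) did not pass. The other members of the role, Kdr, Egfl7, Cldn5, Robo4, Erg and Sox18, had changes between −1.13 and −0.31, and by edgeR none passed over all 5 mice or in either complete series. Of Egfl7, 11.2% of exonic bases are shared with other genes in the GENCODE M21 annotation (among them Agpat2 on the opposite strand), and the libraries do not mark strand, so reads there cannot be assigned.

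Capillary genes had a median log2 fold change of −0.19, nearer to 0 than that of the all-vessel and pericyte genes, and 4 of 5 were below 0. Of the 5, 0 passed by edgeR, DESeq2 or limma voom, with 0 also at an unadjusted p under 0.05 in edgeR's test. Fabp4, a fatty acid carrier of capillary endothelium, was at 19.0, 22.4, 133, 89.1 and 61.5 CPM in the GFP− libraries and 22.3, 11.2, 53.3, 20.5 and 76.2 CPM in the GFP+ libraries. GFP+ was lower in 17C2, 21A4 and 21A5 and higher in 17C1 and 21A7, with a change of −0.78 ± 0.38 (SE), adjusted p = 0.384. The water channel Aqp1 was at 7.60, 8.74, 45.5, 39.7 and 51.7 CPM in the GFP− libraries and 16.3, 12.1, 30.1, 17.2 and 38.0 CPM in the GFP+ libraries. It was higher in GFP+ in both 17C mice and lower in the 3 21A mice (−0.16 ± 0.34 (SE), adjusted p = 0.873). Cav1, the coat protein of caveolae, was at 6.94, 14.4, 54.1, 57.0 and 50.4 CPM in the GFP− libraries and 18.4, 19.0, 35.0, 23.2 and 65.9 CPM in the GFP+ libraries. Its change of 0.044 ± 0.38 (SE) was above 0 with TMM scaling but became −1.18 with library totals, −0.17 with scaling to the cardiomyocyte genes and −0.18 without the mouse block. Rgcc and Gpihbp1, the anchor of lipoprotein lipase, had changes of −0.61 and −0.19.

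Arterial genes were low and had changes of both signs, with a median log2 fold change of −0.07 over 4 genes, 2 of them below 0. None passed by edgeR, DESeq2 or limma voom in all mice, and 0 had an unadjusted p under 0.05 in edgeR's test. Gja5, the connexin Cx40 of arterial endothelium and of conduction and atrial myocytes, was at 0.359, 1.34, 2.73, 3.14 and 2.30 CPM in the GFP− libraries and 15.6, 4.09, 2.38, 2.57 and 6.19 CPM in the GFP+ libraries. The GFP+ library of 17C1 was well above the others, and the change was 1.33 ± 0.80 (SE), adjusted p = 0.483. With library totals its change was −0.052. Gja4, the connexin Cx37, was at 1.26, 0.315, 3.05, 4.36 and 9.96 CPM in the GFP− libraries and 3.26, 0.0952, 1.27, 0 and 0.534 CPM in the GFP+ libraries. It rested on few counts, 0 to 30 in the GFP+ libraries, and the change was −2.38 ± 1.298 (SE), adjusted p = 0.434. Hey1, a Notch target, and Sox17, an arterial transcription factor, had changes of 0.50 and −0.64. Of Sox17, 16.9% of exonic bases are shared with a gene on the opposite strand, Gm37587, and reads there cannot be assigned.

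Venous and endocardial genes had the most negative median of the 6 roles, −1.39 over 3 tested genes, all below 0. By edgeR 0 passed (2 lower at an unadjusted p under 0.05), by DESeq2 1 and by limma voom 3. Over all genes 7.59% were lower at that unadjusted p, and DESeq2 and limma voom called 3.64% and 4.84% lower. Vwf, the clotting factor stored in endothelial granules, was at 2.51, 5.90, 74.0, 57.1 and 126 CPM in the GFP− libraries and 11.3, 2.19, 9.83, 9.37 and 17.5 CPM in the GFP+ libraries. In the 21A mice GFP+ was far below GFP−, whereas 17C1 went the other way, and the change was −1.80 ± 0.74 (SE), adjusted p = 0.294. Plvap, which forms the diaphragms of fenestrae, was at 0.419, 2.13, 25.2, 29.3 and 87.0 CPM in the GFP− libraries and 0.979, 1.62, 4.84, 6.80 and 25.2 CPM in the GFP+ libraries. The GFP− library of 21A7 stood above the other 9 libraries, and the change was −1.39 ± 0.47 (SE), adjusted p = 0.217. Nr2f2, the venous identity factor COUP-TFII, was at 0.0598, 2.13, 10.2, 12.4 and 19.5 CPM in the GFP− libraries and 2.94, 0.952, 3.09, 1.97 and 8.43 CPM in the GFP+ libraries. The GFP− library of 17C1 held 1 count, the change was −0.96 ± 0.89 (SE), adjusted p = 0.669, and 7.46% of its exonic bases are shared with a gene on the opposite strand.

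The lymphatic markers differed in pattern, and by edgeR neither passed over all mice. Flt4, the receptor VEGFR3, was at 1.32, 4.25, 20.2, 23.5 and 33.2 CPM in the GFP− libraries and 4.46, 6.76, 8.80, 11.2 and 36.1 CPM in the GFP+ libraries (−0.018 ± 0.44 (SE), adjusted p = 0.99). Prox1, the lymphatic identity factor that heart muscle also expresses, was at 49.5, 52.6, 25.1, 17.96 and 8.19 CPM in the GFP− libraries and 13.8, 12.9, 25.5, 28.9 and 12.1 CPM in the GFP+ libraries. In the GFP− libraries Prox1 was highest in the 17C mice and Flt4 in the 21A mice. The change of Prox1 over all mice was −0.50 ± 0.47 (SE), adjusted p = 0.673.

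Among the pericyte genes 7 of 8 were below 0, with a median log2 fold change of −1.14, and 1 was above. Over all mice 0 passed by edgeR (3 lower and 1 higher at an unadjusted p under 0.05), and DESeq2 and limma voom each called 3 lower and 1 higher. At that unadjusted p 7.59% of all genes were lower and 7.74% higher. DESeq2 called 3.64% of all genes lower and 3.75% higher, and limma voom 4.84% and 4.76%. Pdgfrb, the receptor that holds pericytes on the vessel, was at 6.76, 8.27, 43.9, 91.5 and 52.0 CPM in the GFP− libraries and 5.44, 1.24, 12.9, 15.5 and 29.0 CPM in the GFP+ libraries. It was lower in GFP+ in 5 of 5 mice (−1.62 ± 0.38 (SE), adjusted p = 0.106). Fibroblasts also carry Pdgfrb, and the summed level of 12 fibroblast genes was also lower in GFP+ in the 3 21A mice; its part in the Pdgfrb result was not tested. Abcc9, the sulfonylurea receptor SUR2 of the ATP-sensitive potassium channel in pericytes and heart muscle, was at 119, 88.3, 89.7, 72.9 and 16.3 CPM in the GFP− libraries and 19.0, 28.7, 41.5, 33.6 and 23.9 CPM in the GFP+ libraries. It was lower in GFP+ in 4 of 5 mice, 21A7 being the exception, with a change of −1.203 ± 0.42 (SE), adjusted p = 0.226. Kcnj8, which encodes the channel pore, had a change of −0.59, Rgs5 one of −1.09, Notch3 one of −1.499, Vtn one of −1.54 and Higd1b one of −0.30.

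Cspg4, the proteoglycan NG2 used as a pericyte marker, went against the rest of its role. It was at 4.61, 11.3, 20.5, 33.2 and 13.9 CPM in the GFP− libraries and 72.6, 92.1, 44.6, 74.3 and 29.8 CPM in the GFP+ libraries. Each GFP+ library was above the GFP− library of its mouse, by 1.09 to 3.96 on the log2 scale (prior count of 2), and only the GFP+ library of 21A7 lay within the GFP− range. The mean was 62.7 ± 25.0 CPM in GFP+ against 16.7 ± 10.9 CPM in GFP− (SD, n = 5). By edgeR over all mice the change on the log2 scale was 2.02 ± 0.48 (SE), adjusted p = 0.107. DESeq2 and limma voom both called it higher. The change was above 0 under each of the alternatives tried, from 0.91 with library totals to 3.50 in the 17C mice alone. Per kb of exon (GENCODE M21 lengths), Cspg4 had rank 33 of 39 members in the GFP− libraries and rank 6 in the GFP+ libraries, at 1.40 ± 0.910 and 5.25 ± 2.10 CPM per kb (SD, n = 5). The summed level of 6 mesothelial genes was also higher in GFP+ in 5 of 5 mice, at 0.718, 12.4, 33.9, 24.8 and 161 CPM in GFP− and 102, 147, 106, 87.7 and 357 CPM in GFP+. In edgeR's test 0 of the 6 passed over all mice, with 5 higher at an unadjusted p under 0.05, while DESeq2 called 4 higher and limma voom 5. Over all genes 7.74% were higher at that unadjusted p, and DESeq2 and limma voom called 3.75% and 4.76% higher. By edgeR 6 of 6 were called higher in the 17C mice (median log2 fold change 4.96) and 5 of 6 in the 21A mice (median 1.42), fits in which Cspg4 was also called higher. Over all genes 6.08% were called higher in the 17C fit and 2.67% in the 21A fit. The part of the mesothelial genes in the Cspg4 result was not tested.

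**Figure D2:**
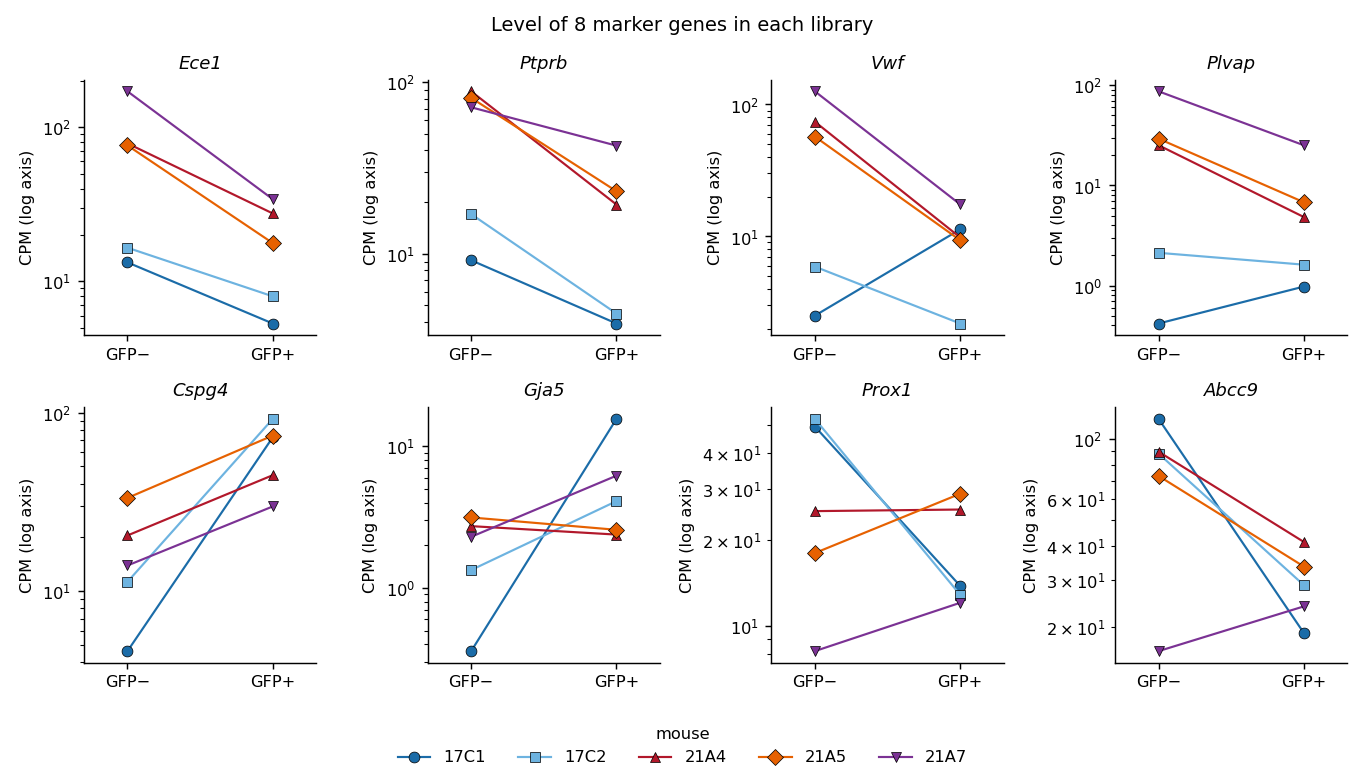
CPM (log axis) of 8 members in the GFP− and GFP+ library of each mouse, joined by a line per mouse. Ece1 and Ptprb fall along each of the 5 lines and Cspg4 rises along each, while the lines of Vwf, Plvap, Gja5, Prox1 and Abcc9 cross or differ in direction.

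The order of levels between genes was read per kb of exon. In the GFP− libraries Cdh5 was highest at 26.5 ± 18.4 CPM per kb, followed by Plvap at 14.5 ± 17.6, Fabp4 at 14.5 ± 10.6, Rgs5 at 13.8 ± 13.9 and Ece1 at 13.4 ± 12.1 (SD, n = 5). The SDs include the gap between the series, so they do not judge the order within a library. Within each GFP− library Cdh5 was above Fabp4, Rgs5 and Ece1. It was above Plvap in all but that of 21A7, where it was at 33.2 against 43.8 CPM per kb. In the GFP+ libraries Cdh5 was again first by mean, at 11.9 ± 9.51 CPM per kb. The capillary genes Cav1 (9.38 ± 5.79), Aqp1 (8.65 ± 4.13) and Fabp4 (8.18 ± 6.05) came next. Cdh5 was below Cav1 and Aqp1 in the GFP+ libraries of both 17C mice and above them in those of the 21A mice.

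The GFP contrast was then fitted in each series, with the mouse as a block. The 17C series has 2 mice and thus 1 residual degree of freedom, so its calls lean on the spread shared across genes. In the 21A mice 12 of 38 members fell and 1 rose, beside 4.05% of all 13221 genes that fell and 2.67% that rose. The median of the members was −1.13, and 35 of 38 were below 0. The 8 all-vessel genes that fell were Emcn (−2.48 ± 0.46 (SE), adjusted p = 0.0161), Ece1 (−1.96), Fli1 (−1.59), Ptprb (−1.56), Tie1 (−1.51), Tek (−1.47), Flt1 (−1.46) and Pecam1 (−1.44). All 3 tested venous and endocardial genes fell as well: Vwf (−2.77 ± 0.22 (SE), adjusted p = 0.00188), Plvap (−2.06) and Nr2f2 (−1.83). Pdgfrb was the pericyte gene that fell (−1.70 ± 0.32 (SE), adjusted p = 0.017) and Cspg4 the one that rose (1.15 ± 0.20 (SE), adjusted p = 0.0133). Of the capillary, arterial and lymphatic genes 0 of 11 passed in the 21A mice by edgeR, with 6 lower at an unadjusted p under 0.05, beside 13.9% of all genes.

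In the 17C mice 3 of 36 tested members fell and 2 rose, beside 7.52% of all 11107 genes that fell and 6.08% that rose. The members' shares, 3 and 2 of 36, were near these. Prox1 fell (−1.93 ± 0.30 (SE), adjusted p = 9.85e-05), as did Abcc9 (−2.12 ± 0.30 (SE), adjusted p = 3.50e-05) and Ptprb (−1.57 ± 0.50 (SE), adjusted p = 0.0369). Cspg4 (3.50 ± 0.32 (SE), adjusted p = 8.87e-08) and Gja5 (3.41 ± 0.87 (SE), adjusted p = 0.0104) rose. The median of the members was −0.33 and 21 of 36 were below 0. Of the 13 cardiomyocyte genes 9 fell in the same fit, with a median of −1.32, and their part in the changes of Prox1 and Abcc9 was not tested.

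**Figure D3:**
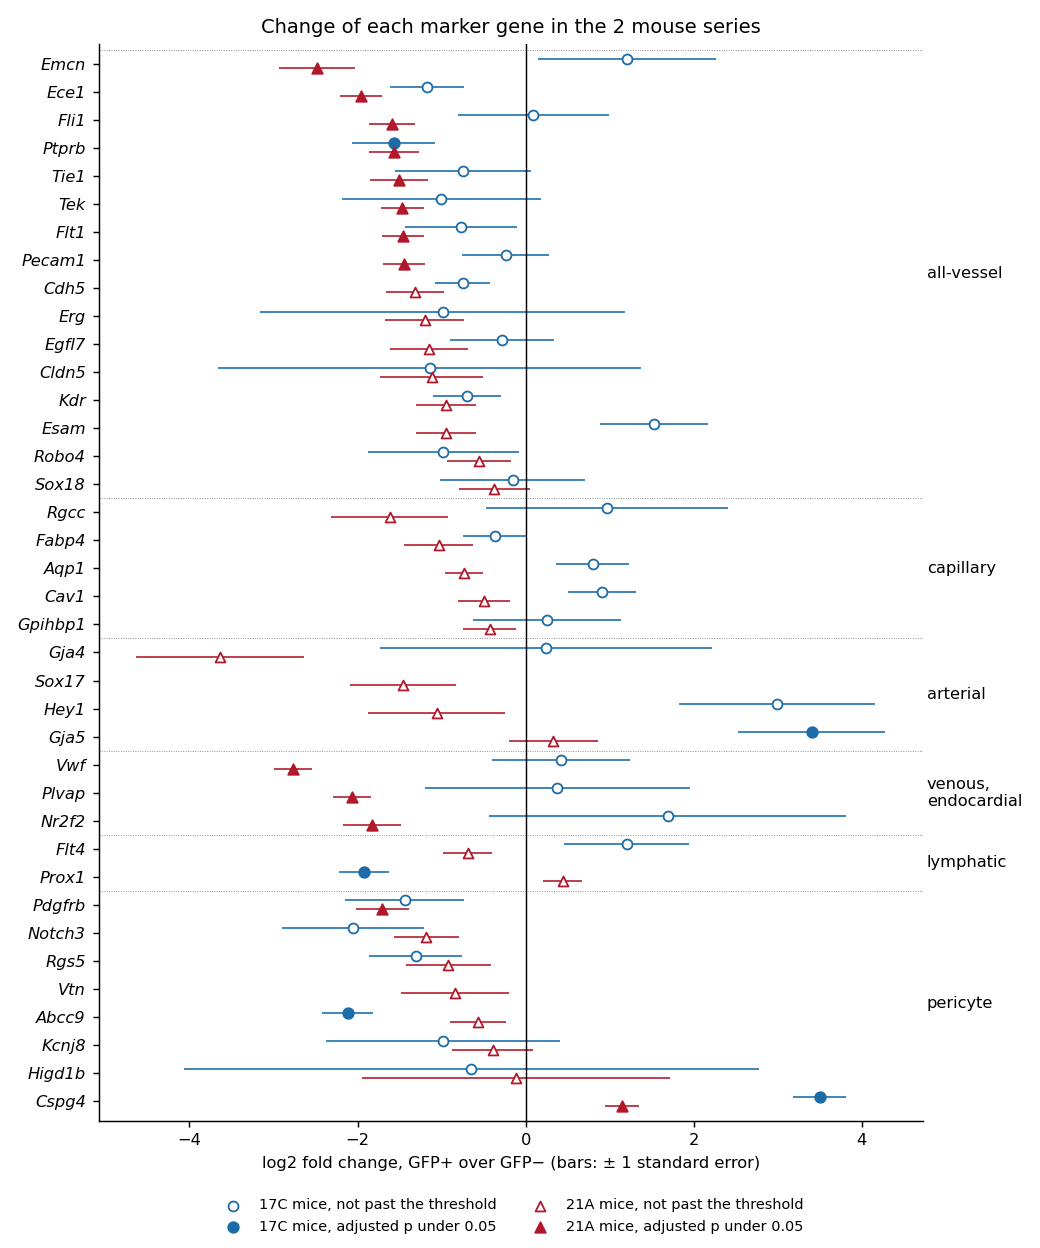
Log2 fold change of GFP+ over GFP− (± 1 standard error) for the 38 tested members by role, in the 17C mice (circles) and the 21A mice (triangles); filled symbols passed the threshold. Vwf, Plvap, Emcn and Gja4 lie below −2 in the 21A mice and above 0 in the 17C mice. Each of them was higher in GFP+ in mouse 17C1 and lower in 17C2. Sox17 and Vtn were not tested in the 17C mice.

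A test of the difference itself, an interaction of GFP with the series, passed for 6 of 38 members, beside 7.62% of all genes. The effect was more negative in the 21A mice for Emcn (by −3.91 ± 0.96 (SE), adjusted p = 0.0403), Vwf (−3.26 ± 0.83 (SE), adjusted p = 0.043), Plvap (−2.29 ± 0.54 (SE), adjusted p = 0.0372), Aqp1 (−1.54 ± 0.38 (SE), adjusted p = 0.0412) and Cspg4 (−2.37 ± 0.37 (SE), adjusted p = 0.0201). For Emcn, Vwf and Plvap the 17C mice differed from each other, GFP+ being higher in 17C1 and lower in 17C2. Cspg4 differed in size and not in direction, since it rose in both series. For Prox1 the effect was more positive in the 21A mice (2.36 ± 0.35 (SE), adjusted p = 0.0192), where its change was 0.44 ± 0.24 (SE) and did not pass. Ptprb changed by −1.57 in the 17C mice and −1.56 in the 21A mice, a difference of 0.0020 ± 0.32 (SE).

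Leaving out mouse 21A7, as was chosen after the data were seen, moved these counts. In the remaining 2 mice of the 21A series, a fit that again has 1 residual degree of freedom, 31 of 38 members fell and 1, Cspg4, rose, beside 10.2% of all genes that fell and 5.75% that rose, and the median was −1.77. The genes that did not pass were Prox1, Hey1, Gja5, Kcnj8, Higd1b and Gpihbp1, with changes from −2.10 to 0.37. The difference between the series then passed for 6 members, beside 4.86% of all genes. Prox1 (2.28), Aqp1 (−1.70) and Cspg4 (−2.36) were again among them, and Cav1 (−1.87), Esam (−3.01) and Flt4 (−2.31) were the other 3. Emcn (−3.37, adjusted p = 0.0753), Vwf (−3.25, adjusted p = 0.0664) and Plvap (−2.49, adjusted p = 0.0657) did not pass in that fit.

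The 2 series were also compared within each sort, a comparison chosen after the data were seen. Within the GFP− libraries 23 of 39 members were higher in the 21A mice and 0 lower, beside 14.8% of 14209 genes that were higher; without mouse 21A7 it was 30 of 38 higher and 1, Prox1, lower, beside 17.5% and 8.43% of all genes. The median of the members was 2.42 on the log2 scale, and that of all genes was 0.17. The genes called were 12 of 16 all-vessel, 4 of 5 capillary, 1 of 4 arterial, 3 of 4 venous and endocardial, 1 of 2 lymphatic and 2 of 8 pericyte genes. Plvap differed by 5.25 ± 0.92 (SE), adjusted p = 0.0139, Vwf by 4.36 ± 0.59 (SE), adjusted p = 0.0087 and Pecam1 by 3.24 ± 0.40 (SE), adjusted p = 0.0087. Within the GFP+ libraries 0 of 38 members were called by edgeR, with 0% of 11921 genes called higher. At an unadjusted p under 0.05, 21 of 38 members were higher there in the 21A mice, beside 10.3% of all genes. Among them were Plvap (3.26 ± 0.85 (SE), adjusted p = 0.166) and Flt1 (2.45 ± 0.46 (SE), adjusted p = 0.123). The GFP− libraries enter this comparison and the GFP contrasts above, so the values are not independent of each other.

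Markers of other cell types moved with these results. Summed over the 31 endothelial members with a row, the level was 193, 271, 1191, 1167 and 1179 CPM in GFP− and 222, 148, 439.9, 348 and 741 CPM in GFP+. The 12 fibroblast genes summed to 171, 379, 8027, 13207 and 16329 CPM in GFP− and 364, 392, 2621, 2155 and 6903 CPM in GFP+. The 12 macrophage genes summed to 33.0, 26.9, 338, 728 and 756 CPM and 46.0, 21.5, 78.3, 93.9 and 342 CPM. All 3 lists were higher in the 21A than in the 17C libraries of the same sort, and lower in GFP+ in the 3 21A mice. In the GFP− libraries the ratio of the 21A to the 17C mean was 5.08 for the endothelial members, 45.5 for the fibroblast genes and 20.3 for the macrophage genes. In the same comparison 11 of 12 fibroblast and 12 of 12 macrophage genes were called higher in the 21A mice, beside 14.8% of all genes. The 13 cardiomyocyte genes summed to 47536, 55339, 36752, 22245 and 4612 CPM in GFP− and 22376, 29445, 47079.8, 45617 and 12170.3 CPM in GFP+. Adipocyte genes summed to at most 0.271 CPM in any library, lymphocyte genes to at most 0.317 and Schwann cell genes to at most 1.49. Red cell genes summed to 86.7 CPM in the GFP+ library of 21A7 and 9.74 CPM in its GFP− library, against 0.553 to 4.29 CPM in the other 8. Neutrophil genes summed to 10.4 CPM in the GFP− and 8.64 CPM in the GFP+ library of 21A7, against at most 2.17 CPM in the others. The part of the other cell types in the endothelial results was not tested.

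**Figure D4:**
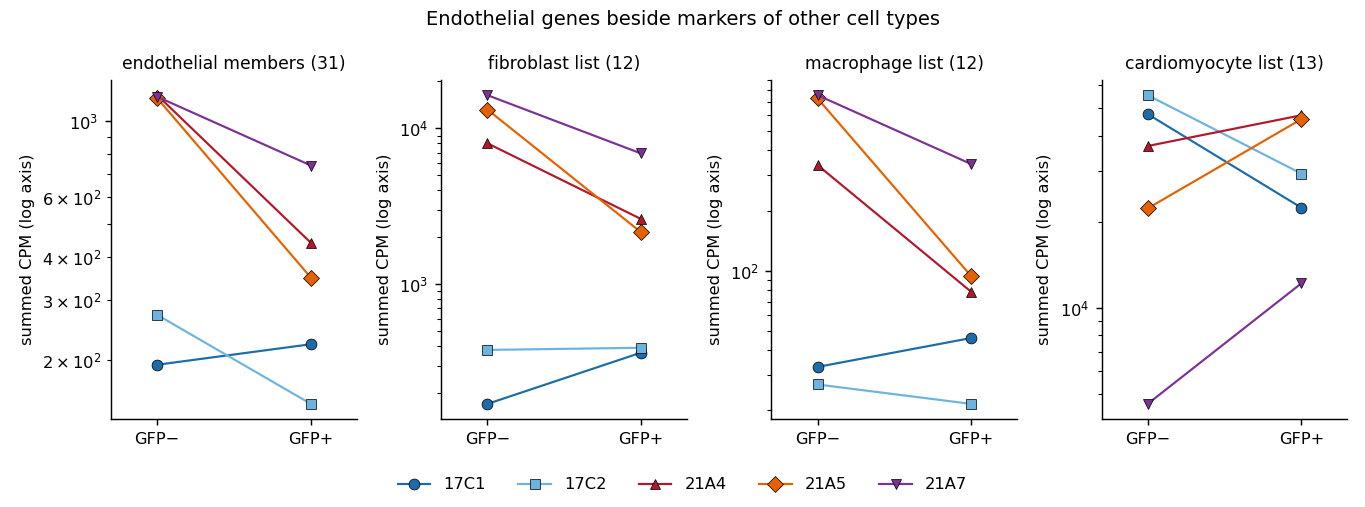
Summed CPM (log axis) of the endothelial members and of fibroblast, macrophage and cardiomyocyte genes in the GFP− and GFP+ library of each mouse, joined by a line per mouse; brackets give the number of genes. The 3 left panels share their order of series, with the 21A mice above the 17C mice in both sorts, and the cardiomyocyte genes are lowest in the GFP− library of 21A7.

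Endothelial and fibroblast levels did not keep a fixed ratio. The endothelial sum divided by the fibroblast sum was 1.13, 0.713, 0.148, 0.0884 and 0.0722 in the GFP− libraries and 0.609, 0.379, 0.168, 0.161 and 0.107 in the GFP+ libraries. Within the 17C mice it was lower in GFP+, and within the 21A mice higher. In each sort both 17C values were above the 3 21A values.

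The makeup of the endothelial counts differed between the sorts in a measure that does not depend on library scaling, also chosen after the data were seen. Capillary genes were taken as a share of the counts of the 29 members with a row that mark blood endothelium (all-vessel, capillary, arterial, venous and endocardial). With 95% Wilson intervals, which cover counting error only, the share in 17C1 was 25.4% (23.7 to 27.2%) in GFP− and 31.003% (28.9 to 33.1%) in GFP+. It was 23.9% (22.3 to 25.5%) and 36.4% (33.9 to 39.04%) in 17C2, and 22.4% (22.0 to 22.7%) and 31.9% (30.7 to 33.2%) in 21A4. GFP+ was thus the higher in these mice, with intervals that did not overlap. In 21A5 the share was 18.2% (17.9 to 18.6%) and 22.4% (21.4 to 23.4%), and in 21A7 15.4% (15.1 to 15.7%) and 28.1% (27.0 to 29.2%). The share was higher in GFP+ in 5 of 5 mice, with a mean of 29.98 ± 5.17% against 21.1 ± 4.14% (SD, n = 5), and the ranges of the 2 sorts overlapped. It was higher in 5 of 5 mice also with any 1 of the 5 capillary genes left out. Taken alone, Aqp1, Cav1 and Gpihbp1 had a higher share in GFP+ in 5 of 5 mice, Rgcc in 3 and Fabp4 in 2. Mean shares in GFP+ against GFP− were 9.90 and 5.16% for Cav1 and 7.18 and 4.29% for Aqp1. They were 10.1 and 9.75% for Fabp4, 2.10 and 1.33% for Gpihbp1 and 0.717 and 0.519% for Rgcc. Most of the difference thus lay in Cav1 and Aqp1. The genes were left out 1 at a time only, so the share without both Cav1 and Aqp1 was not tested. The share of the venous and endocardial genes was higher in GFP+ in 1 of 5 mice, at 5.76 ± 1.71% against 9.14 ± 7.02% (5.36 against 6.31% without 21A7). The share of the arterial genes was 2.48, 1.07, 0.969, 1.46 and 1.53% in GFP− and 12.5, 6.65, 1.35, 1.48 and 1.88% in GFP+. The 2 GFP+ libraries of the 17C mice stood above all others, while in 21A5 and 21A7 the Wilson intervals of the 2 sorts overlapped. Gja5, which conduction and atrial myocytes also express, held 143 of the 234 arterial counts in the GFP+ library of 17C1. In that of 17C2 it held 43 of 90. Hey1 held 43 and 41 counts there. No arterial gene was left out in turn, and the part of Gja5 and Hey1 in the share was not tested. The mean was 4.77 ± 4.85% in GFP+ against 1.501 ± 0.60% in GFP− (SD, n = 5), and 2.84 against 1.26% without 17C1. Since the measure was chosen with the values in view, no p-value is given.

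**Figure D5:**
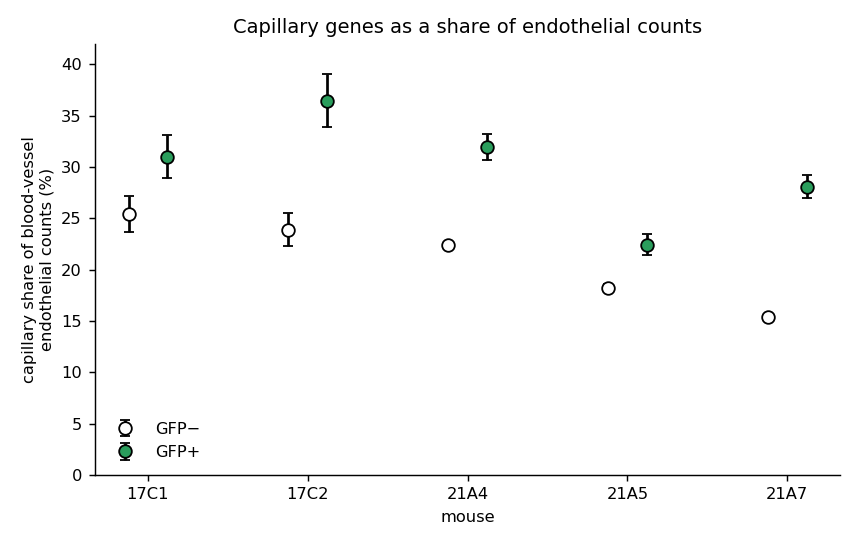
Capillary genes as a percentage of the counts of the 29 blood endothelial members in each mouse, GFP− (open) and GFP+ (filled), with 95% Wilson intervals that cover counting error only. The filled point is above the open point in each of the 5 mice, by the most in 21A7 and by the least in 21A5.

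Genes that signal to and from the vessel wall were read from lists beside the members. Of 18 ligands tested, 0 passed by edgeR (5 lower and 0 higher at an unadjusted p under 0.05), 14 were below 0 and the median was −0.49. DESeq2 called 2 lower and limma voom 6. Over all genes DESeq2 called 3.64% lower and limma voom 4.84%. At an unadjusted p under 0.05 in edgeR's test 7.59% of all genes were lower and 7.74% higher. Edn1, the endothelin precursor on which Ece1 acts, was at 0.957, 0.315, 2.81, 1.84 and 10.7 CPM in the GFP− libraries and 0.326, 0.286, 0.555, 0.413 and 1.17 CPM in the GFP+ libraries. It was lower in GFP+ in 5 of 5 mice (−2.01 ± 0.61 (SE), adjusted p = 0.18), and passed in the 21A mice alone (−2.55 ± 0.54 (SE), adjusted p = 0.0252). Angpt1, the ligand of Tek, was at 9.93, 14.0, 16.8, 6.15 and 2.75 CPM in the GFP− libraries and 1.96, 1.14, 4.203, 2.48 and 4.48 CPM in the GFP+ libraries. Its change of −1.71 ± 0.58 (SE) did not pass over all mice (adjusted p = 0.217), and in the 17C mice it fell (−2.94 ± 0.61 (SE), adjusted p = 0.00196). Vegfa was at 92.1, 95.7, 39.1, 39.05 and 38.3 CPM in the GFP− libraries and 45.5, 53.1, 60.9, 57.0 and 27.6 CPM in the GFP+ libraries. It was lower in GFP+ in both 17C mice, where it fell (−0.92 ± 0.26 (SE), adjusted p = 0.0209), and over all mice its change was −0.23 ± 0.31 (SE), adjusted p = 0.783.

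Of 17 receptors tested, 1 fell and 15 were below 0, with a median of −1.14. DESeq2 called 5 lower and limma voom 12. Over all genes 0.173% fell by edgeR, 3.64% by DESeq2 and 4.84% by limma voom. At an unadjusted p under 0.05 in edgeR's test 7.59% of all genes were lower and 7.74% higher. Eng, endoglin, a co-receptor for BMP and TGF-beta ligands on endothelium, was at 10.8, 19.0, 82.8, 87.2 and 138 CPM in the GFP− libraries and 6.85, 5.999, 28.5, 16.3 and 47.6 CPM in the GFP+ libraries. It was lower in GFP+ in 5 of 5 mice (−1.57 ± 0.28 (SE), adjusted p = 0.0452). Among 24 further endothelial genes 0 passed by edgeR (6 lower and 0 higher at an unadjusted p under 0.05), 19 were below 0, and the median was −0.81; DESeq2 called 3 lower and limma voom 6. Cavin2, a caveola protein, was at 25.9, 28.2, 58.2, 37.1 and 31.2 CPM in the GFP− libraries and 14.1, 12.3, 30.7, 23.9 and 19.5 CPM in the GFP+ libraries. Slc9a3r2, a scaffold protein, was at 6.34, 7.79, 33.7, 34.3 and 26.5 CPM in the GFP− libraries and 2.72, 3.24, 13.6, 8.68 and 25.3 CPM in the GFP+ libraries. Both were lower in GFP+ in 5 of 5 mice, with changes of −0.86 ± 0.20 (SE), adjusted p = 0.0966 for Cavin2 and −1.17 ± 0.30 (SE), adjusted p = 0.126 for Slc9a3r2.

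Smooth muscle genes, which mark the vessel wall outside capillaries, had changes of both signs. Of 5 tested, 4 were below 0 (3 at an unadjusted p under 0.05, and called lower by DESeq2 and limma voom) and 1, Cnn1, rose. Over all genes 7.59% were lower at that unadjusted p, DESeq2 called 3.64% lower and limma voom 4.84%. By edgeR 0.685% of all genes rose. Cnn1, the actin-binding calponin-1, was at 0.479, 0.236, 3.05, 5.29 and 4.36 CPM in the GFP− libraries and 36.6, 19.0, 23.9, 53.2 and 19.1 CPM in the GFP+ libraries. Every GFP+ library was above every GFP− library, and the change was 3.85 ± 0.64 (SE), adjusted p = 0.0426. Cnn1 and Cspg4 were thus both higher in GFP+ in 5 of 5 mice while most vessel wall genes were lower.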

How the data were processed

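RNA of sorted cells was made into cDNA with SMARTer Ultra Low Input v4 and into libraries with Nextera XT, which does not mark strand, per the labels' protocols. The deposited table holds unnormalized read counts, whole numbers per gene, for 10 libraries of 5 mice. Per the submitters' processing notes, the tools were featureCounts with Subread 2.0.1, the aligner STAR 2.7.9a and fastp 0.23.1, on build GRCm39; the gene annotation and counting options are not given in these sources.

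The count test was edgeR 4.0.16 (R 4.3.3), two-sided quasi-likelihood, with TMM factors and filterByExpr. P-values were adjusted over all 12115 genes left (Benjamini-Hochberg, threshold 0.05). The mouse entered as a block because both libraries of a mouse carry its identifier. Checked over genes, residuals from the group means had same-mouse correlations of 0.637 (mouse 21A7), 0.397 (mouse 17C2), 0.292 (mouse 17C1), 0.161 (mouse 21A4) and 0.0741 (mouse 21A5). Each SE was derived from the fold change and its F statistic. Alternatives used DESeq2 1.42.0, limma 3.58.1 voom with quality weights, other scalings and filters, each series alone, and each mouse left out. The test was run on simulated counts with known changes first. The simulation held no difference between mice or series, capped the spread and changed only well-expressed genes. It therefore does not cover the low members or the differences between mice found here.

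The members and lists were chosen with earlier results of these data known. Values in every library are given for members that passed in any edgeR fit (all mice, with and without the block, either series, or the interaction) and, per role, for the highest mean CPM and the highest and lowest change. Of the signalling, endothelial and smooth muscle lists, up to 3 genes that passed or else 2 with the smallest p are given, and Vegfa and Angpt1 in any case. Exonic lengths and shared bases are from GENCODE M21 and promoters from RefSeq, both of build GRCm38, and no coordinates were converted.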

Additional observations from a re-analysis of the deposited data

Results flagged for a closer look

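The GFP effect on 6 members differed between the mouse series by the interaction test in edgeR. The log2 difference, 21A minus 17C, was −3.91 for Emcn (adjusted p = 0.0403), −1.54 for Aqp1 (0.0412), −3.26 for Vwf (0.0430), −2.29 for Plvap (0.0372), 2.36 for Prox1 (0.0192) and −2.37 for Cspg4 (0.0201). For Emcn, Aqp1, Vwf and Plvap the estimate was above 0 in the 17C mice and below 0 in the 21A mice, and for Prox1 the reverse. Of these 17C estimates above 0, only that of Aqp1 was shared by both mice. In 17C2 the log2 difference (prior count of 2) was −0.12 for Emcn, −1.40 for Vwf and −0.38 for Plvap. In 17C1 it was 2.16, 2.13 and 1.08.

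In 6 of 60 groups of 5 libraries checked, the highest library lay far from the other 4 by Dixon's criterion, where chance gives about 5%. The GFP+ library of 21A7 was that library in 5 of them: Esam at 15.9 CPM, Plvap at 25.2 CPM, Nr2f2 at 8.43 CPM, Flt4 at 36.1 CPM and the summed venous and endocardial genes at 51.1 CPM. It also had the highest mitochondrial share, 91.2% of its counts, and the highest summed red cell genes, 86.7 CPM. Gja5 was far above the others in the GFP+ library of 17C1, at 15.6 CPM. The 60 groups are not independent, since they share libraries and the summed venous and endocardial genes include Plvap and Nr2f2. The 5% is therefore only a rough guide.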

How the results depend on the processing

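The paired design rests on the mouse as a replicate block. Without the block, members called lower went from 2 to 0 and all genes called from 21 lower and 83 higher to 0 and 10; the blocked and unblocked fits called no member higher. All genes called lower and higher were 441 and 454 with DESeq2, 586 and 577 with limma voom, 0 and 0 when scaled to the cardiomyocyte genes, 458 and 360 without a filter, 835 and 675 in the 17C mice and 536 and 353 in the 21A mice; 5 were higher with library totals and 32 lower with the stricter filter. Members called lower were 8 with DESeq2, 16 with limma voom, 0 with library totals, 0 when scaled to the cardiomyocyte genes, 13 without a filter and 12 in the 21A mice. Members called higher were 1 with DESeq2, limma voom, no filter or the 21A mice alone, and 2 in the 17C mice. The median log2 fold change of the members was −2.19 with library totals, where that of all genes was −1.15, and thus −1.04 relative to it; scaling to the cardiomyocyte genes put all genes at −0.23. Leaving out 1 mouse gave 0 to 8 members lower, 0 to 74 lower and 0 to 99 higher over all genes.

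In the 17C mice alone 15 members were above 0, of which Cav1, Gja5, Hey1 and Cspg4 were also above 0 over all mice. The others turned from below 0, to 1.21 for Emcn, 1.53 for Esam, 0.092 for Fli1, 0.80 for Aqp1, 0.96 for Rgcc, 0.25 for Gpihbp1, 0.24 for Gja4, 0.42 for Vwf, 0.37 for Plvap, 1.69 for Nr2f2 and 1.201 for Flt4. Each of those others was higher in GFP+ in 17C1, but in 17C2 only Esam, Aqp1 and Flt4 were. The estimate of Prox1 was 0.44 in the 21A mice. Cav1 was at −0.18 without the block, −0.29 with limma voom, −1.18 with library totals, −0.17 scaled to the cardiomyocyte genes and −0.49 in the 21A mice, and Gja5 at −0.052 with library totals. With 1 mouse left out, Esam ranged from −0.57 to 0.37, Aqp1 from −0.45 to 0.091, Cav1 from −0.28 to 0.36 and Flt4 from −0.39 to 0.31. The cause was not tested. Counts of amplified reads without molecular identifiers limit precision for the members at a few counts, such as Gja4, Higd1b, Vtn and Ackr1.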
